A study of Mus musculus with 30 samples.

Results

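The deposited expression table held 2115 transcripts that carried no Ensembl transcript identifier and no gene name and were identified only by chromosome, start and end. Of these, 36 had no value in any library, and the 2079 with a value in at least 1 of the 30 libraries are described here. They made up 4.79% of the transcripts with a value. Each library came from the hippocampus, taken whole, of a mouse of 15 months, with 6 mice per diet, 3 males and 3 females, in the order ChowCR, 5% P, 10% P, 15% P and Chow. The series title names caloric restriction and diets low in protein and high in carbohydrate, so CR and P were read as caloric restriction and protein. The labels used here give neither the strain nor the composition of the diets, and Chow was taken as the control. Nothing in the labels says that replicates share more than a diet, so p-values measure the spread between these 30 mice.

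Transcript assembly joins aligned reads into models, and a model that matches no annotated transcript is given its own name. Such models can be isoforms that the annotation lacks, stretches of retained intron, transcribed pseudogenes or transcription between genes. Processed pseudogenes are copies of messenger RNAs that were put back into the genome, and reads from a copy and from its parent gene are hard to tell apart. In the brain, long genes with many isoforms and long 3' ends are common, and assembled models often cover only a piece of them.

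The sequences below are those of 6 transcripts listed in at least 12 libraries that lay wholly inside 1 exon of an annotated processed pseudogene. Shown are those of at most 300 bases that matched the sense strand of a parent's coding sequence and overlapped no annotated UTR, with 1 chromosome left out. They are shown because near-identity to a parent gene bears on every value given for them. Each reads 5′ to 3′ along the strand of the annotated pseudogene, from GENCODE transcripts on GRCm38, and capitals mark bases that differ from the closest protein-coding transcript within the aligned stretch. The few bases outside it, as in AC133509.1 (229 of 230 aligned) and Gm6474 (211 of 215), were not compared and are in lower case. The names in brackets are the pseudogene and then that closest gene.
chr19:17926689-17926918 (AC133509.1, Eef1a1): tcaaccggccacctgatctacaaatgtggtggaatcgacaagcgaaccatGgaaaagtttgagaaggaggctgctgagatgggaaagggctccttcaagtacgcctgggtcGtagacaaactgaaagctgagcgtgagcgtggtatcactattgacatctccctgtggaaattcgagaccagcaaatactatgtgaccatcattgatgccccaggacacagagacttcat
chr8:11683492-11683754 (Gm7600, Rps3a1): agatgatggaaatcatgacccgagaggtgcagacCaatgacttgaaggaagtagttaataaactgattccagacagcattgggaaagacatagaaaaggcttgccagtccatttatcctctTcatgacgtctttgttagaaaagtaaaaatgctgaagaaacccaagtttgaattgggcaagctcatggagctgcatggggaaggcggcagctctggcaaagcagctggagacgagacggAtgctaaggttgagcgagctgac
chr13:61687300-61687514 (Gm6474, Psma2): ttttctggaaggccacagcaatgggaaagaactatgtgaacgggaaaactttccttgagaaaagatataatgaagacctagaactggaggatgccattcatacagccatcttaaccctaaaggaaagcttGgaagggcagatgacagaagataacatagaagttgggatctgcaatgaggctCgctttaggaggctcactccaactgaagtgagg
chr14:93194844-93195054 (Gm9247, Ldha): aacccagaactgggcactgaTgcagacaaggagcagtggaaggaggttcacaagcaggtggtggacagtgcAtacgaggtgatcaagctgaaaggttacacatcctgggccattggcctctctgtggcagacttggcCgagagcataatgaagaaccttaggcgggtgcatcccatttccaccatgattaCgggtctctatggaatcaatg
chr13:15118632-15118837 (Gm9512, Eef1a1): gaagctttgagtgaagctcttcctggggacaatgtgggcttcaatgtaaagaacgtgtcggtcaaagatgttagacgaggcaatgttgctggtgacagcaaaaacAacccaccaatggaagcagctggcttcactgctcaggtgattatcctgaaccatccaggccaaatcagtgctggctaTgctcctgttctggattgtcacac
chr15:3217786-3218042 (Gm7962, Ewsr1): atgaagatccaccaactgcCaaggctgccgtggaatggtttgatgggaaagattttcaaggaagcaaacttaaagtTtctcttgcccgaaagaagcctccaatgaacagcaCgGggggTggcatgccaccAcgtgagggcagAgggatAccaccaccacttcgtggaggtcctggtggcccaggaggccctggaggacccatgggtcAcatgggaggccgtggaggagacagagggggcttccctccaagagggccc

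The closest genes encode a translation elongation factor (Eef1a1), a protein of the small ribosomal subunit (Rps3a1), a proteasome subunit (Psma2), lactate dehydrogenase A (Ldha) and an RNA-binding protein (Ewsr1). The AC133509.1 sequence differed from Eef1a1 at 2 of 229 aligned bases, an identity of 99.1%. The Gm7962 sequence differed from Ewsr1 at 9 of 257 bases, the most of the 6, an identity of 96.5%. Of 87 location-named transcripts wholly inside 1 pseudogene exon, 85 aligned over at least 90% of their length to a protein-coding transcript of another gene, with a median identity of 98.6%. The identity was at least 95% for 79 of them and 100% for 9. Some of the 87 are end variants of one another. At 90% identity or more over that length, the 6 sequences matched these numbers of other annotated genes, the closest included. They were 11 for AC133509.1, 9 for Gm7600, 1 for Gm6474, 15 for Gm9247, 13 for Gm9512 and 3 for Gm7962. The FPKM values of such transcripts are therefore uncertain between the pseudogene, the parent and any further copies, and the labels do not say how such reads were assigned.

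Location-named transcripts were listed in few libraries and at high levels. A library either gave a transcript an FPKM value, fragments scaled to transcript length and to the library's mapped fragments, or did not list it. Of the 62370 possible values of the 2079 transcripts, 10257 were present, or 16.4%, against 49.8% for annotated transcripts. The median location-named transcript was listed in 4 libraries, and the median annotated one in 14. Listing was in exactly 1 library for 137 transcripts, in 2 to 6 for 1510, in 7 to 14 for 394 and in at least 15 for 38. None was listed in all 30 libraries, whereas 6858 annotated transcripts were, and the most listed one was in 28. These contrasts are not at a like threshold. Annotated transcripts counted as listed at any value down to 0 FPKM, and 65.7% of their values lay under 2 FPKM, where no location-named value lay. Listing of annotated transcripts at 2 FPKM or above was not compared, so the lower listing of location-named transcripts may come from that floor.

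No location-named value lay under 2 FPKM, and none was 0. The lowest was 2.004 FPKM, the median 15.4 FPKM and the highest 470 FPKM, while 65.7% of annotated values lay under 2 FPKM. A transcript that is not listed may thus have been under 2 FPKM or may not have been assembled, and the table does not say which. The levels given were steady where they existed. Over the 1680 transcripts in at least 3 libraries, the median coefficient of variation (the SD as a percent of the mean) was 13.6%, with quartiles of 9.07% and 21.2%. Among transcripts in 3 to 28 libraries with a mean of at least 5 FPKM, the median was 13.2% for 1534 location-named transcripts and 33.7% for 1987 annotated ones. It was 26.9% for the 1325 annotated ones with every value at 2 FPKM or above. For 1193 location-named transcripts the lowest listed value was at least 10 FPKM although at least 15 libraries did not list them, and for 58 of these it was at least 100 FPKM.

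**Figure D1:**
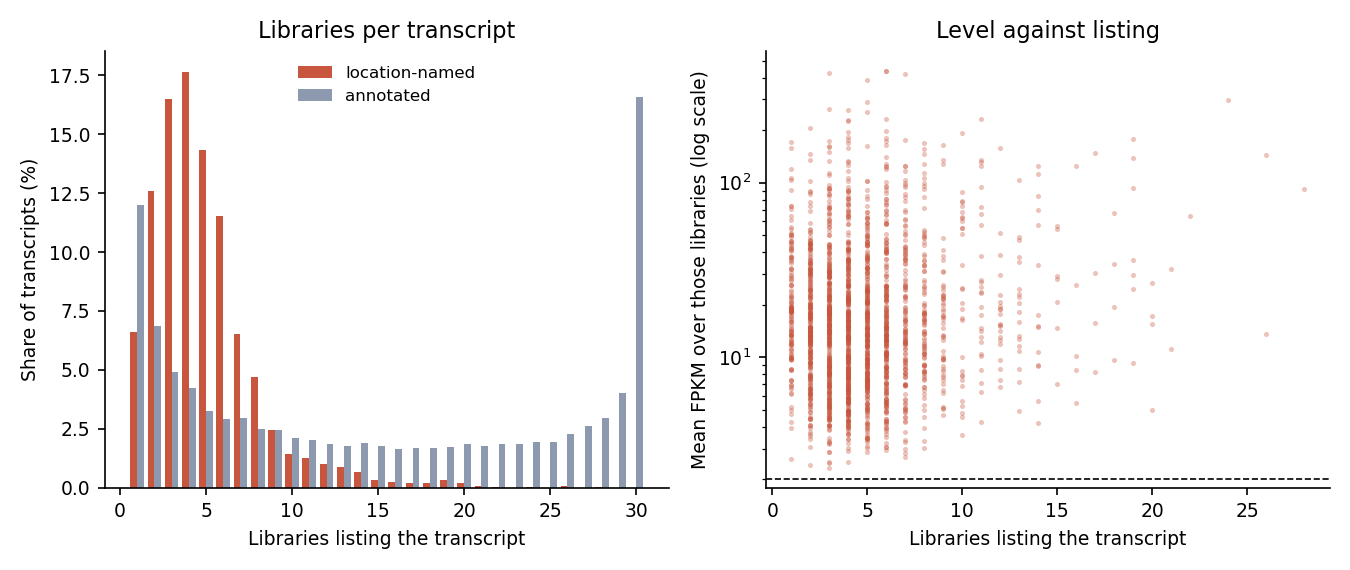
Left, the share of location-named and of annotated transcripts (percent, y axis) by the number of libraries listing them (x axis). Right, the mean FPKM of each location-named transcript over the libraries that list it (log scale, y axis) against that number, with a dashed line at 2 FPKM. Most location-named transcripts sit at 2 to 6 libraries, while the tallest annotated bar is at 30, and levels above 100 FPKM occur at low and high listing. Annotated transcripts are counted at any value, also under 2 FPKM, where no location-named value lay.

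Many location-named transcripts were end variants of one another. Linking transcripts whose starts and ends both differed by at most 5 bases, in chains, gave 1557 families, of which 389 held 2 or more transcripts, 911 transcripts in all. In those 389 families, 4 of 4561 listings of a family in a library had more than 1 variant listed. A pair of variants of 1 family was listed together in 4 of the 6519 pair-by-library cases in which either was (0.0614%), against 138 of 3406 (4.05%) for overlapping transcripts of different families. The family with the most variants, 10, spanned Pigp and Ttc3 on chromosome 16, was listed in 21 libraries at 49.6 ± 7.14 FPKM (SD), and showed 1 variant in each. Grouping raised the number of units listed in at least 24 libraries to 16, from 4 single transcripts, and none reached all 30.

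By position on GENCODE release M21, 1912 transcripts (92.0%) overlapped an annotated gene, 1687 of them a protein-coding one, and 1503 genes were overlapped. The names carry no strand, so sense and antisense could not be told apart. Position was read from start and end alone, because the names give no exon structure. A spliced transcript whose span crosses introns thus counts as over exon and intron, though it may hold no intron sequence. Inside a gene over both exon and intron lay 1145 transcripts (55.1%), which held 50.4% of the location-named FPKM. A pseudogene was overlapped by 257 (12.4%), which held 19.5% of it. This class came first and took any overlap, so long transcripts of other genes with a pseudogene within their span are included. Wholly inside 1 pseudogene exon lay 87 of the 257. Within 1 exon lay 233, in an intron alone 155, and reaching past gene ends 122. Outside genes lay 160, of which 131 were within 5000 bases of a gene. A further 7 lay on a patch and a scaffold that the annotation used here does not cover. Spans ran from 200 bases, with a median of 3295. At most 500 bases were spanned by 490 transcripts, listed in 6.15 libraries on average, and more than 10000 by 701, listed in 3.99.

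The tissue label was checked on marker genes in the annotated part of the table. All 5 neuronal markers had a value in all 30 libraries, and Snap25, a synaptic vesicle fusion protein, summed to between 296 and 1034 FPKM. Of the markers of dentate and pyramidal cells 3 of 5 had one, of astrocytes 3 of 5, of oligodendrocytes 4 of 5, of microglia 1 of 5, of endothelium 1 of 4, of choroid plexus 1 of 5 and of blood 4 of 5. Ttr, the carrier protein that choroid plexus makes, ran from 7.16 to 7513 FPKM over the libraries, and its part in the results below was not tested. In whole tissue, fewer cells of a type and less RNA per cell cannot be told apart. Libraries listed 19681 to 21853 transcripts each. The sequencing depth is unknown.

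The number of location-named transcripts listed per library did not differ between diets beyond the spread of the mice. Libraries listed 325 to 361 (median 339.5) in ChowCR, 324 to 370 (339) in 5% P, 311 to 356 (337) in 10% P, 318 to 364 (346) in 15% P and 313 to 385 (343) in Chow. The ranges of all 5 groups overlapped. The means were 342 ± 13.2 in ChowCR, 342 ± 16.2 in 5% P, 335 ± 17.8 in 10% P, 343 ± 17.8 in 15% P and 348 ± 25.4 in Chow (SD, n = 6 each). In 6 comparisons by exact permutation, two-sided, the smallest p was 0.318, for 10% P against Chow, and all adjusted p were 0.792. The smallest p that 6 against 6 allows is 0.00216.

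The FPKM share, that is, the percent of a library's summed FPKM held by location-named transcripts, lay between 5.45% and 6.89%. It averaged 6.13 ± 0.381% in ChowCR, 5.94 ± 0.340% in 5% P, 6.11 ± 0.436% in 10% P, 6.08 ± 0.310% in 15% P and 6.34 ± 0.418% in Chow (SD, n = 6 each). The mean was below that of Chow in each of the other 4 diets, and every group's range overlapped that of Chow. The largest difference, 5% P minus Chow, was -0.393 percentage points, with an exact permutation p of 0.108 and an adjusted p of 0.325 over 6 comparisons. For 5% P, 10% P and 15% P pooled against Chow, 6.04% and 6.34%, the exact permutation p was 0.107 and the adjusted p 0.325.

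**Figure D2:**
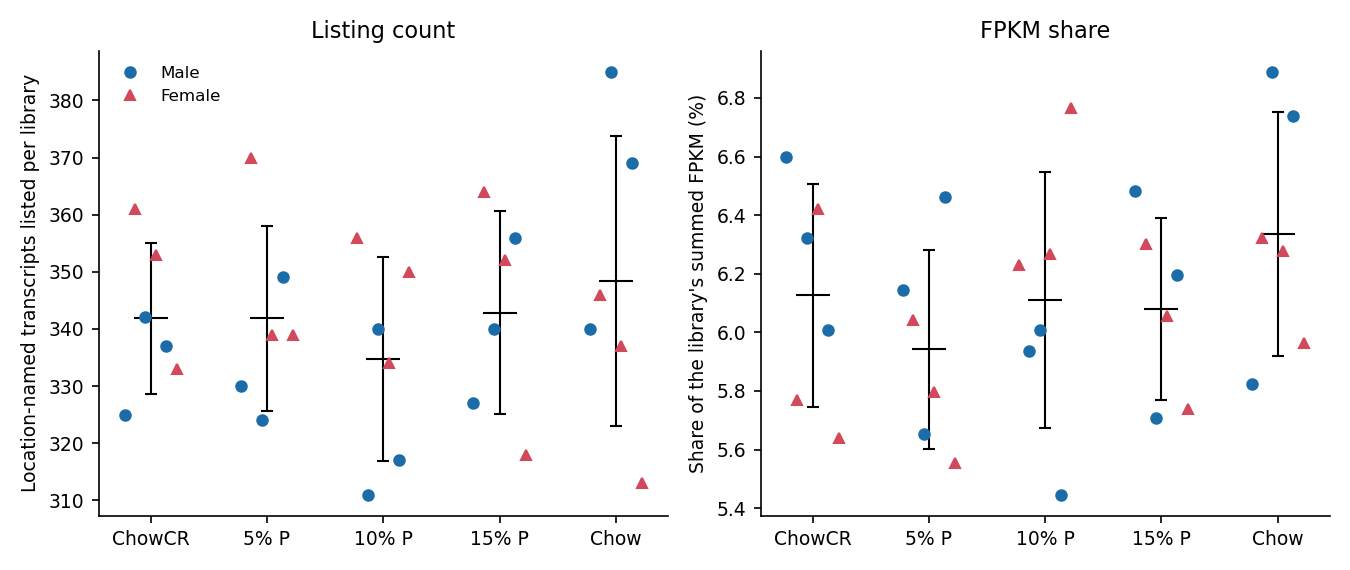
Location-named transcripts listed per library (left, count) and their share of the library's summed FPKM (right, percent), neither axis starting at 0, by diet, with males as circles and females as triangles. Black marks are the mean and SD of 6 libraries. The groups overlap in both panels, and 2 of the 3 Chow males have the highest listing counts of their group, 385 and 369.

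Sex alone made no difference past the threshold. Males listed 339 ± 19.5 location-named transcripts and females 344 ± 16.1 (SD, n = 15 each), and a permutation test with 100000 resamples gave p = 0.471, adjusted p = 0.544. Their FPKM shares were 6.16 ± 0.419% in males and 6.08 ± 0.335% in females, permutation p = 0.544. Within the sexes the listing count went in opposite directions. Males listed 325, 342 and 337 transcripts in ChowCR and 311, 340 and 317 in 10% P, against 340, 385 and 369 in Chow. Females listed 361, 353 and 333 in ChowCR and 356, 334 and 350 in 10% P, against 346, 337 and 313 in Chow. The ChowCR minus Chow difference was -30.0 in males and 17.0 in females, and the difference between these, tested by permuting diets within each sex, had an exact p of 0.040. For 10% P it was -42.0 and 14.7, p = 0.030 by exact permutation. None of 8 such tests passed after adjustment, the smallest adjusted p being 0.133.

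By position, 42 tests of the listing count and 42 of the FPKM share gave no difference past the threshold, and 4, all of the count, had an unadjusted p under 0.05. Transcripts outside genes numbered 26.8 ± 3.71 per library in 10% P, against 33.5 ± 3.83 in Chow (SD, n = 6 each; exact permutation p = 0.0238, adjusted p = 0.515). For the 3 P diets together they numbered 28.8, against 33.5 in Chow (exact p = 0.0340). Transcripts overlapping a pseudogene numbered 49.2 ± 3.87 in ChowCR, against 55.7 ± 5.16 in Chow (exact permutation p = 0.0390, adjusted p = 0.515). They numbered 53.9 in the P diets, against 49.2 in ChowCR (exact p = 0.0490).

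Location-named transcripts lay on chromosomes 1 to 19 and X, on a patch and on unplaced scaffolds, with none on Y or the mitochondrial chromosome. Chromosome 7 carried the most, 167, which held 0.577 ± 0.179% of the summed FPKM (SD over 30 libraries). Chromosome 11 followed with 150 and 0.504 ± 0.103%, and chromosome 13 carried the fewest of the autosomes, 66, with 0.116 ± 0.0296%. In 80 exact permutation tests of the listing count, 20 chromosomes by 4 diets against Chow, none had an unadjusted p under 0.05. In the same 80 tests of the FPKM share 3 did, and the smallest adjusted p was 0.899. These were chromosome 4 in 15% P, with 0.281 ± 0.0723% in 15% P against 0.383 ± 0.0673% in Chow (p = 0.0368, exact), and chromosomes 1 and 6 in ChowCR. For those the shares were 0.150% and 0.123% in ChowCR, against 0.214% and 0.180% in Chow.

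**Figure D3:**
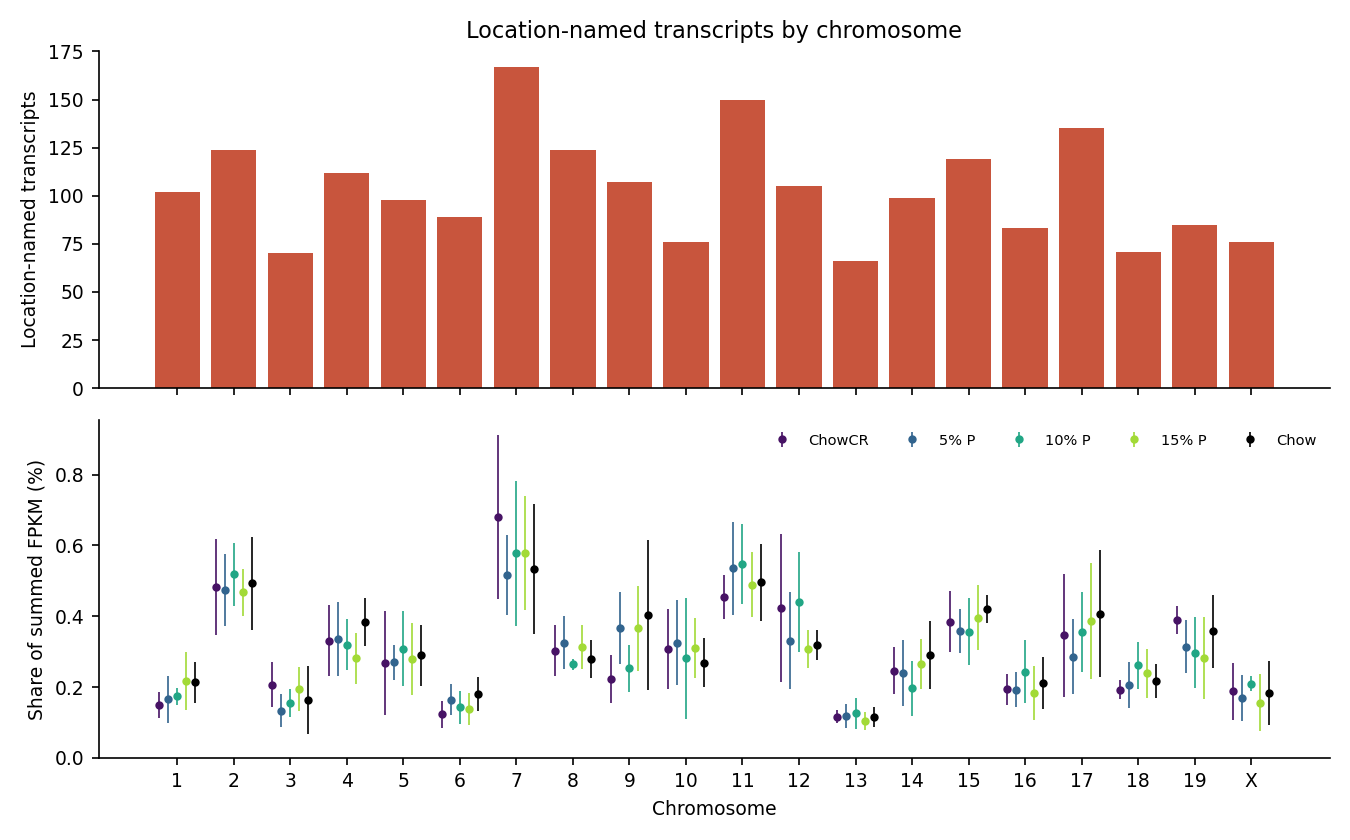
Number of location-named transcripts on each chromosome (top) and their share of the summed FPKM by diet (bottom, percent, mean and SD of 6 libraries). Chromosome 7 has the most transcripts, 167, and the largest mean share over all libraries, 0.577%.

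The highest transcript of each chromosome was often part of an abundant gene and, taken without its end variants, was listed in few libraries. On chromosome 17, chr17:45567841-45573271 in Hsp90ab1, a cytosolic chaperone, had 455 FPKM in 1 ChowCR library, 416 in 1 of 5% P, 452 in 1 of 10% P, 430 in 1 of 15% P, and 437 and 443 in 2 Chow libraries. A transcript with the same start and another end, chr17:45567841-45573254, was listed in 3 further libraries, so that 9 libraries held a location-named Hsp90ab1 transcript, at 403 to 455 FPKM. The annotated Hsp90ab1 transcripts summed to at most 8.67 FPKM in any library. On chromosome 7, chr7:30434981-30442619 at Aplp1, an amyloid precursor-like protein, had 444, 452 and 470 FPKM in 3 ChowCR libraries, 426 in 1 of 10% P and 415 in 2 of 15% P, and was listed in no 5% P or Chow library. On chromosome 12, chr12:111669363-111669746 in Ckb, the brain creatine kinase, had 425 to 447 FPKM in 3 ChowCR libraries, 366 in 1 of 5% P and 417 to 432 in 3 of 10% P, and was listed in no 15% P or Chow library. Over the libraries that listed them, the means were 437 ± 22.0 FPKM for the Aplp1 transcript, 439 ± 14.5 for that of Hsp90ab1 and 422 ± 27.4 for that of Ckb (SD). No location-named transcript passed the tests of listing given below. End variants and annotated transcripts of Aplp1 and Ckb are not given here, so these gaps in listing do not measure the level of either gene by diet.

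The highest transcript of chromosome 10, chr10:128548113-128548432 over Rpl41, a ribosomal protein gene, was listed in 1 library of each diet, at 430 FPKM in ChowCR, 374 in 5% P, 378 in 10% P, 414 in 15% P and 342 in Chow. That of chromosome 9, chr9:59671919-59679373 in Pkm, the muscle and brain pyruvate kinase, had 341 and 345 FPKM in 5% P, 209 in 15% P, and 275 and 280 in Chow. On chromosome 2 it was chr2:156388063-156389296 at 2900097C17Rik, listed in 6 libraries at 232 ± 6.91 FPKM (SD). With its end variants, it was listed in 3 libraries of ChowCR, 5 of 5% P, 4 of 10% P, 4 of 15% P and 5 of Chow, at 208 to 260 FPKM. On chromosome X it was chrX:64497023-64497927, outside annotated genes, listed in 9 libraries at 136 ± 10.7 FPKM: 2 of ChowCR, 1 of 5% P, 3 of 10% P, 1 of 15% P and 2 of Chow. Each of these 4 was listed in libraries of at least 3 diets.

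Listing itself was tested across the table, for the transcripts that some but not all of the compared libraries listed, by Fisher's exact test, two-sided, and no location-named transcript passed in any of 6 comparisons. The share of all transcripts called at an adjusted p under 0.05 was 0% for ChowCR, 0% for 5% P, 0% for 10% P and 0% for 15% P against Chow, of 29733 to 29874 tested. It was also 0% for the P diets together against Chow, of 34966. For males against females it was 0.0192%, or 7 of 36548, none of them location-named. With 6 against 6, the smallest possible p is 0.00216, which cannot pass after adjustment over this many transcripts unless many reach it. With 18 against 6 the smallest possible p of Fisher's exact test is 7.43e-06, which also cannot pass alone over 34966. At an unadjusted p under 0.05 there were 2 of 1796 location-named transcripts in ChowCR, 1 of 1768 in 5% P, 1 of 1789 in 10% P, 2 of 1771 in 15% P, 31 of 2046 in the P diets and 29 of 2079 in males against females. The counts over all transcripts were 83, 63, 64, 61, 485 and 381 in the same order.

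The transcripts named next had the smallest p, or shared it, in their comparison, except chr11:42630435-42630653, which came second. chr5:147110647-147111360 in Polr1d, a subunit shared by RNA polymerases I and III, was listed in 6 of 6 ChowCR libraries at 4.81 to 6.45 FPKM, against 1 of 6 Chow libraries at 5.02 FPKM (Fisher's exact p = 0.0152, adjusted p = 1). chr12:14929878-14930168 in the pseudogene Gm9202 was listed in 0 of 6 ChowCR and 5 of 6 Chow libraries, with the same p. chr4:116152076-116159841 in Pomgnt1, a glycosyltransferase, was listed in 5 of 6 libraries of 5% P and in 0 of 6 of Chow, and chr13:12260065-12260273 in Gm47021 in 5 of 6 of 10% P and 0 of 6 of Chow. chr4:149184306-149225236 in Kif1b, a kinesin of axonal transport, was listed in 1 of 6 libraries of 15% P, at 76.5 FPKM, and in 6 of 6 of Chow, at 64.1 to 74.0 FPKM. For the P diets together, a transcript on chromosome 18 outside genes was listed in 0 of 18 libraries of the P diets and 4 of 6 of Chow (Fisher's exact p = 0.00141, adjusted p = 1). Next to it, chr11:42630435-42630653, also outside genes, was listed in 2 of 18 and 5 of 6 (exact p = 0.00270). By sex, chr4:14766129-14766346, over Lrrc69 and Gm11838, was listed in 13 of 15 males and 5 of 15 females (Fisher's exact p = 0.00778, adjusted p = 1). Sharing that p, chr10:45875287-45876066 over the pseudogene Gpx4-ps2 was listed in 10 of 15 males and 2 of 15 females. With its end variants it was listed in 12 males and 10 females. Some of these contrasts thus rest on the split into end variants. With variants joined into families, those with an unadjusted p under 0.05 were 2 of 1382 in ChowCR, 3 of 1377 in 5% P, 4 of 1391 in 10% P, 0 of 1378 in 15% P, 24 of 1542 in the P diets and 22 of 1557 in males against females. The smallest p for 15% P was then 0.0606 by Fisher's exact test, so the contrast at Kif1b no longer had a p under 0.05.

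Levels could be tested for few members. The limma fit required a value in all 30 libraries, which left 4447 annotated transcripts and no location-named one. The families were therefore tested in a fit added after the data had been seen, with 7655 transcripts and families listed in at least 24 libraries, unlisted values left missing and sex as a covariate. It included 16 location-named families, and none passed a Benjamini-Hochberg adjusted p of 0.05 in any comparison. Among all 7655 units, limma called 0.0261% for ChowCR, 0% for 5% P, 0.0131% for 10% P and 0% for 15% P against Chow. It called 0% for the P diets against Chow, 0% for the P diets against ChowCR, 0% for the trend over the P diets and 0.0131% for males against females. Of the 16 families, 2, 0, 2, 2, 2, 1, 0 and 1 had an unadjusted p under 0.05 in those 8 comparisons, in that order. Over all 7655 units the counts were 534, 423, 478, 390, 475, 485, 348 and 427. The median log2 fold change of the 16 was -0.02 in ChowCR, 0.03 in 5% P, -0.03 in 10% P and -0.02 in 15% P against Chow, and over all units tested it was 0.02, 0.00, 0.01 and -0.01.

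Of the single transcripts, chr5:127954976-127955363 was listed in the most libraries, 28. It lies in an intron of Tmem132d, a transmembrane protein. Its values ran from 83.1 to 91.3 FPKM (median 90.7) in 5 ChowCR libraries, 82.6 to 98.8 (88.1) in 6 of 5% P, 86.6 to 101.6 (93.8) in 6 of 10% P, 81.3 to 104.9 (89.3) in 6 of 15% P and 89.95 to 107.4 (94.1) in 5 of Chow. The groups overlapped. Its log2 fold change in 5% P against Chow was -0.14 ± 0.07 (SE), the smallest p of a family in that comparison (limma adjusted p = 0.888).

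The AC133509.1 transcript whose sequence is given above, chr19:17926689-17926918, was the most abundant of those in at least 24 libraries. It had 299 to 318 FPKM in 5 ChowCR libraries, 254 to 301 in 4 of 5% P, 280 to 315 in 5 of 10% P, 274 to 361 in 4 of 15% P and 219 to 317 in 6 of Chow. Next to it stood a family in an intron of Prkcb, protein kinase C beta, at chr7:122631879-122632491, with 147 ± 14.9 FPKM over 25 libraries, and chr11:77295093-77296391 over Ssh2 and the pseudogene Gm12346, with 145 ± 11.4 over 26. The Prkcb family had 123 to 161 FPKM in ChowCR, 142 to 159 in 5% P, 122 to 156 in 10% P, 132 to 156 in 15% P and 121 to 175 in Chow.

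The smallest p of a family against Chow was that of chr14:13902041-13902282, in an intron of Gm281. It had 17.2 to 25.4 FPKM (median 19.5) in 5 ChowCR libraries, 17.3 to 21.8 (19.8) in 4 of 5% P, 14.1 to 19.01 (15.4) in 5 of 10% P, 13.9 to 20.3 (18.5) in 5 of 15% P and 16.9 to 25.3 (24.4) in 5 of Chow. The 10% P values were low, and their highest lay above the lowest of Chow. The log2 fold change in 10% P against Chow was -0.50 ± 0.15 (SE; limma adjusted p = 0.606).

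Outside annotated genes, the family chr16:37111090-37112419 had 20.1 to 23.5 FPKM (median 22.0) in 6 ChowCR libraries, 22.4 to 28.6 (27.5) in 5 of 5% P, 20.5 to 25.4 (23.3) in 5 of 10% P, 23.7 to 25.6 (24.7) in 3 of 15% P and 22.5 to 28.5 (26.6) in 6 of Chow. Its log2 fold change in ChowCR against Chow was -0.22 ± 0.09 (SE; limma adjusted p = 0.584). A family within 1 exon of Gm2115, chr7:84581351-84581977, had a log2 fold change of -0.44 ± 0.20 in ChowCR and -0.48 ± 0.21 in 10% P, both against Chow (limma adjusted p = 0.675 and 0.747). A family within 1 exon of Gm10320, chr13:98489526-98489825, averaged 17.7 ± 2.66 FPKM in 4 libraries of 15% P, against 13.9 ± 1.08 in 6 of Chow (log2 fold change 0.32 ± 0.14 (SE), limma adjusted p = 0.927).

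**Figure D4:**
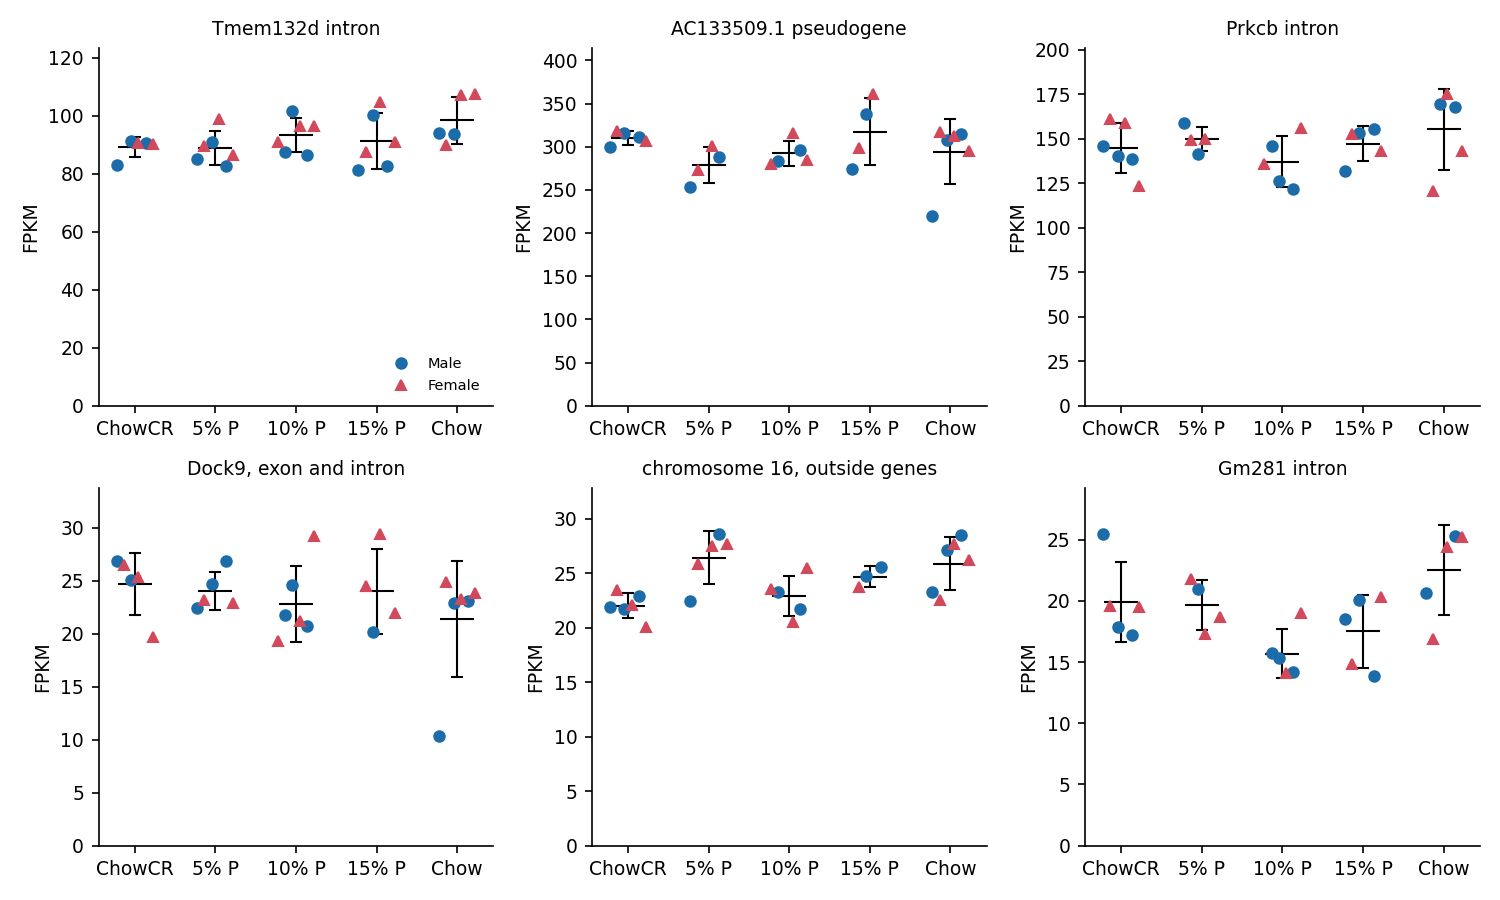
FPKM (y axis, from 0) of 6 location-named families by diet and sex, each point a library that lists the family, with the mean and SD in black. For the Gm281 intron family the 10% P values are 14.1 to 19.01 FPKM, against 16.9 to 25.3 FPKM in Chow, and the 2 sets overlap.

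For some genes nearly all of the FPKM listed within their bounds lay in location-named transcripts. Of the 2079, 1226 lay wholly inside exactly 1 annotated gene, and for 692 of these the gene also had annotated transcripts with a value, which gave 401 host genes. Hosts were set by coordinates alone, with the strand unknown, and transcripts in an intron alone were counted too. A location-named transcript inside a host is thus not known to be a product of that gene. Counting an unlisted transcript as 0, the mean location-named FPKM exceeded the mean annotated FPKM in 247 of the 401 hosts, and exceeded it more than 10 times in 95. The genes named next were chosen after their values had been seen, and their summed values are given with no test. Their location-named transcripts were among those in the Fisher's exact tests of listing above, in which no location-named transcript passed.

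Kif5c, a kinesin heavy chain of neurons, had 1 such transcript, chr2:49744419-49774767. It had 118 to 134 FPKM in all 6 ChowCR libraries, 132 in 1 of 5% P, 120 to 135 in 3 of 10% P, 121 to 129 in 3 of 15% P and 107 to 128 in 3 of Chow, and was unlisted in the other 14. The annotated Kif5c transcripts summed to at most 2.33 FPKM in any library. Clstn1, a calsyntenin of synapses, had 8 such transcripts in 25 libraries, with a summed mean of 136 FPKM against 0.256 FPKM in annotated transcripts.

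Slc12a5, the chloride exporter of neurons, held both kinds. It had 3 location-named transcripts, of which 2 shared a start, and its annotated transcripts ran from 1.57 to 110 FPKM over the libraries. Its location-named sum was 28.6 to 117 FPKM in ChowCR, 0 to 111 in 5% P, 39.8 to 120 in 10% P, 0 to 127 in 15% P and 0 to 120 in Chow. Kif1b had 5, with a location-named sum of 15.5 to 110.5 FPKM in ChowCR, 0 to 110.3 in 5% P, 57.7 to 188 in 10% P, 0 to 131 in 15% P and 102 to 208 in Chow. Anapc5, a subunit of the anaphase-promoting complex, was the only host with a location-named transcript in all 30 libraries, at 13.2 to 80.8 FPKM.

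Adding the location-named FPKM to that of the annotated transcripts lowered the coefficient of variation over the 30 libraries in 162 of the 401 host genes and raised or left it in the rest. The median was 88.2% for annotated transcripts alone and 109% for the sum. Among the 18 hosts with a location-named transcript in at least 20 libraries, it was lower in 13, and the median was 104% for annotated transcripts alone and 62.2% for the sum. In Clstn1 it was 288% alone and 68.2% summed, and in Slc12a5 89.1% and 49.5%. In Anapc5 it was 8.16% alone and 27.3% summed. An unlisted transcript added no FPKM to a sum, so the coefficient of a sum depends on how many libraries list its transcripts. Choosing hosts by listing in at least 20 libraries thus bears on the lower median of the 18. The same dependence bears on the higher median of all 401. Whether gene levels were steadier once summed was not tested, because listing and level were not separated.

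**Figure D5:**
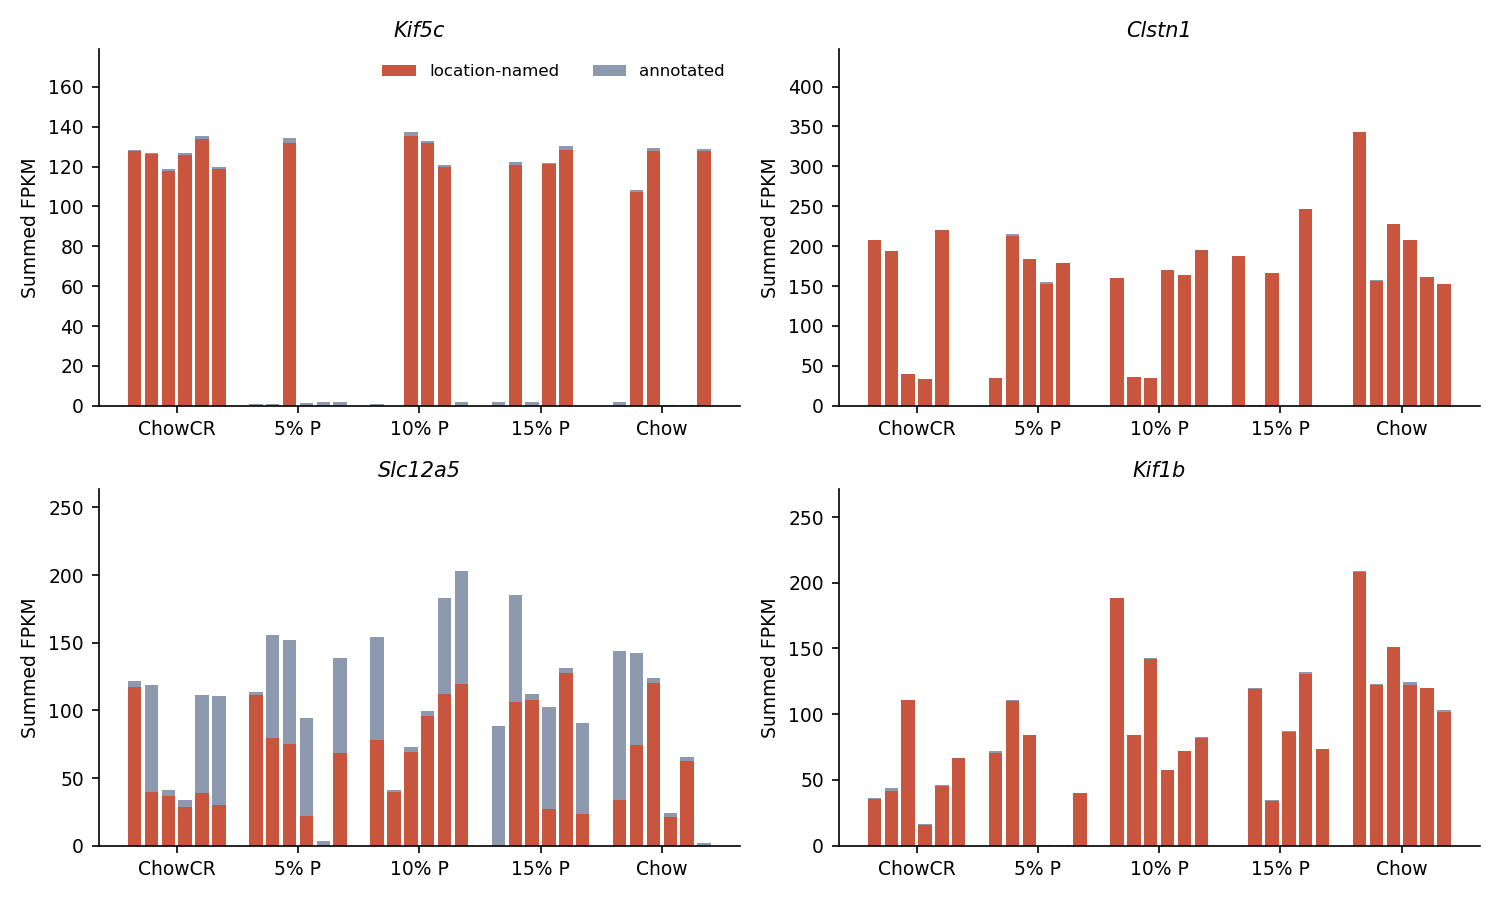
Summed FPKM per library (bars, from 0) of location-named and annotated transcripts of Kif5c, Clstn1, Slc12a5 and Kif1b, 6 libraries per diet, with an unlisted transcript drawn as 0. All 6 ChowCR libraries have the Kif5c transcript at 118 to 134 FPKM, and it is listed in 1 of 6 libraries of 5% P and in 3 of 6 each of 10% P, 15% P and Chow.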

How the data were processed

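RNA from whole hippocampus was made into poly(A)-selected, stranded libraries and sequenced on a HiSeq 2500 for 100 cycles, per the labels' protocols. The authors deposited FPKM values per transcript, with an empty cell where a library did not list one. The tools named per the submitters' processing notes were StringTie 1.2.4, TopHat2 2.0.14, DESeq2 1.16.1, featureCounts 1.4.6 and bcl2fastq 2.18.0, with the build mm10 and without their roles. FPKM keeps no read depth, so no counting error can be given.

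Members and lists were chosen with earlier results of these data known. Location-named transcripts were placed on GENCODE M21 (GRCm38) by coordinates, and pseudogene stretches were aligned with BLAST 2.17.0. Sums per library were compared by exact permutation, two-sided, with Benjamini-Hochberg adjustment within each family of tests, and listing by Fisher's exact test. With limma 3.58.1, levels were compared on the log2(FPKM + 0.5) scale over transcripts or families averaging at least 1 FPKM. Fold changes on that scale understate changes of low transcripts. Python 3.11.15 (pandas 2.3.3, NumPy 2.4.6, SciPy 1.17.1) and R 4.3.3 were used, and tests were checked on simulated data. Genes could be named by rule if they were in all libraries, passed a test, or were the highest transcript of a chromosome. The other names, among them the most listed transcripts, the families, the sequences, the host genes and the smallest listing p, were chosen after their values had been seen.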

Additional observations from a re-analysis of the deposited data

Results flagged for a closer look

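Of 122 groups of 4 to 6 libraries examined, 12 held 1 value far from the rest, where chance gives about 1 group in 20. In 3 of them it was the FPKM share of transcripts on the patch and scaffold that the annotation does not cover. That share was 0% in ChowCR replicate 6, against 0.101 to 0.146% in the other ChowCR libraries. It was 0.00661% in 5% P replicate 6, against 0.109 to 0.150% in the others of that diet, and 0% in Chow replicate 6, against 0.105 to 0.137% in the others of Chow. The share was as low in 10% P replicates 1, 2 and 5, at 0.00705%, 0% and 0%, and in 15% P replicate 1, at 0.0145%, so a low share was not particular to those 3 libraries. A family on the patch, at 177 ± 17.7 FPKM (SD), was listed in 5 libraries of ChowCR, 5 of 5% P, 3 of 10% P, 5 of 15% P and 5 of Chow. In each diet as many libraries had a low share as did not list this family. The rate of 1 group in 20 does not apply to a share set by listing in this way.

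The remaining 9 were levels of families. The Tmem132d intron transcript had 83.1 FPKM in ChowCR replicate 1, against 90.2 to 91.3 in 4 other libraries. The Gm6474 family had 32.8 FPKM in 15% P replicate 3, against 25.5 to 27.1. The transcript over Ssh2 and Gm12346 had 126 FPKM in ChowCR replicate 3, against 137 to 141. The Dock9 family had 19.7 FPKM in ChowCR replicate 6, against 25.1 to 26.9, and 10.4 FPKM in Chow replicate 1, against 22.8 to 24.9. The Gm10320 family had 13.7 FPKM in 10% P replicate 4, against 16.1 to 16.3. The AC133509.1 transcript had 219 FPKM in Chow replicate 1, against 295 to 317. The Gm9247 family had 39.9 FPKM in 15% P replicate 5, against 31.3 to 33.2. The Gm281 intron family had 25.4 FPKM in ChowCR replicate 1, against 17.2 to 19.6.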

How the results depend on the processing

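No location-named transcript or family passed its test under any alternative run with limma or Fisher's exact test, and no chromosome did. Many of these alternatives could not have given another outcome. Those with limma on single transcripts in all 30 libraries held no location-named one. In Fisher's exact tests and by chromosome, the minimum values tried lay below the lowest location-named value, 2.004 FPKM, so they left the listing of location-named transcripts unchanged. For the listing count per library, a minimum above that value was run as well. Fisher's exact test with 6 against 6 or fewer had the limit given above. For the listing count and the FPKM share the smallest adjusted p over the alternatives run was 0.136 and 0.156 by permutation. As a percent of all listed transcripts, the count differences turned to 0.00705 for 15% P against Chow and 0.0116 for the P diets against ChowCR. In females alone they turned to 17.0 (ChowCR), 17.3 (5% P), 14.7 (10% P), 12.7 (15% P) and 14.9 (P diets), each against Chow. The FPKM share difference turned to 0.136 for the P diets against ChowCR without the 10 highest transcripts. In females alone it turned to 0.140 for the P diets against ChowCR and 0.234 for 10% P against Chow. The cause was not tested. Leaving out 1 library at a time gave count differences of -13.6 to 0.833 for ChowCR and for 5% P, -20.7 to -6.33 for 10% P, -12.6 to 1.83 for 15% P and -15.6 to -1.22 for the P diets, against Chow, and -5.42 to 1.78 for the P diets against ChowCR. The signs turned without Chow replicate 3, and in the last without ChowCR replicate 2 or 4. FPKM share differences ran from -0.312 to -0.0984, -0.497 to -0.283, -0.357 to -0.0935, -0.358 to -0.145 and -0.394 to -0.181 in the same order against Chow, and from -0.180 to 0.0120 for the P diets against ChowCR, which turned without ChowCR replicate 1. No paired analysis was possible because the labels give no replicate numbers shared between diets. A share of location-named transcripts in all 30 libraries could not be had, since none was listed in all. The share with the annotated transcripts in all 30 libraries as its denominator was among the alternatives run. Read depth is unknown, so an unlisted transcript sets no limit on its level.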
